A study of Mus musculus with 6 samples.

Results

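Accessible chromatin was described at the collagen genes of mouse epiblast stem cells, which derive from the post-implantation epiblast. The members were the ATAC-seq peaks whose nearest protein-coding autosomal gene, measured from the peak's summit and at most 100 kb away, had a symbol of the collagen form (Col, a type number, a, a chain number). This gave 42 of 20665 genes, 802 of 204650 autosomal peaks in the list named FM and 500 of 138130 in the list named KO. Merging overlapping peaks of both lists made 919 collagen regions of 238308 autosomal regions. All samples are labelled as serum-differentiated, and the cells had been aggregated into embryoid bodies, which were 2 days old in both groups. One group of 3 libraries came from Mixl1 knockout cells, and the other group of 3 came from Mixl1-inducible cells, whose 2-day embryoid bodies were given 1 µg/mL doxycycline for the last 24 h. Each library was made from 50000 cells that had been cultured on irradiated mouse embryonic fibroblasts before aggregation. The labels do not say what drives the inducible Mixl1, which part of Mixl1 the knockout alters, whether the knockout cells also received doxycycline, or whether the libraries of a group came from separate cultures. Mixl1, doxycycline and the cell line as sources of a difference cannot be told apart. Only 1 peak list per group was analysed, and FM, a name the labels leave unexplained, was taken as the induced group because the other list is named KO. Values below therefore carry no replicate error, and the groups were compared without a test.

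Collagens are triple-helical proteins of the extracellular matrix. Fibrillar collagens assemble into the banded fibrils of bone, cartilage, skin and tendon, and type IV collagen forms the sheet-like network of basement membranes, including the one on which the epiblast rests. The other classes decorate fibrils (FACIT collagens), form beaded filaments (type VI), span the cell membrane, or sit in the zone around basement membranes (the multiplexins Col15a1 and Col18a1). ATAC-seq measures where the Tn5 transposase can insert into DNA, so a peak records open chromatin and not transcription.

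Fold enrichment below is the authors' deposited value per peak, the height of the summit over its local background, and q is the peak caller's adjusted p-value. Depth in reads is unknown. Over all autosomal protein-coding genes the lists gave 222605 regions, of which 41.1% had a peak in both lists and are called shared. Of the 131223 regions with a peak in 1 list, called specific, 73.7% were FM-specific. The epiblast and streak markers taken as a check (Pou5f1, Otx2, Fgf5, Dnmt3b, Nodal, T, Eomes and Mixl1) all had peaks in both lists, and the 7 of these 8 with a start window had a peak over it in both. Of the 8 fibroblast markers, Dcn, Lum and Fap had no region in either list, and the whole set had 36 shared regions, with 58 found in FM alone and 12 in KO alone. Twist2 gave 33 of those FM-specific regions and Thy1 17. For the 8 parietal endoderm markers these counts were 45, 71 and 32, and for the 5 chondrocyte markers 52, 74 and 13. The part of feeder fibroblasts or of other cell types in the collagen peaks was not tested.

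At the collagen genes 354 of 919 regions were shared (38.5%, exact binomial 95% interval 35.4 to 41.8, covering the counting of regions only), against 41.1% over all genes. A total of 433 regions were FM-specific and 132 KO-specific. The FM-specific share of specific regions was 76.6% (interval 72.9 to 80.1), against 73.7% over all genes and 73.7% when the shares of the members' own chromosomes were averaged over the same regions. The interval contains the background value. Without chromosomes 12 and 15 it did not, at 80.0% (interval 76.4 to 83.4) against 75.5% over all genes. No collagen gene lies on chromosome 12, so this setting left out the 3 on chromosome 15, with 12 FM-specific and 27 KO-specific regions. With the 50000 peaks of lowest p from each list the order turned, to 52 FM-specific and 72 KO-specific collagen regions (41.9%). The interval of 33.1 to 51.1 contains the 50.8% over all genes in that setting. More FM-specific than KO-specific regions were counted at 36 of the 42 genes, against 68.8% of all genes with a region, and more KO-specific regions at 4 genes (Col3a1, Col5a2, Col14a1 and Col22a1), against 13.9%. Col2a1 and Col12a1 had equal numbers, as did 3076 of the 17853 genes with a region over all. Collagen genes are long, with a median of 110.4 kb against 17.5 kb over all genes, and had a median of 17 regions each against 6. Their peaks were less often strong. A −log10 q of at least 10 was reached by 17.1% of FM and 23.8% of KO collagen peaks, against 24.5% and 29.6% over all genes.

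**Figure D1:**
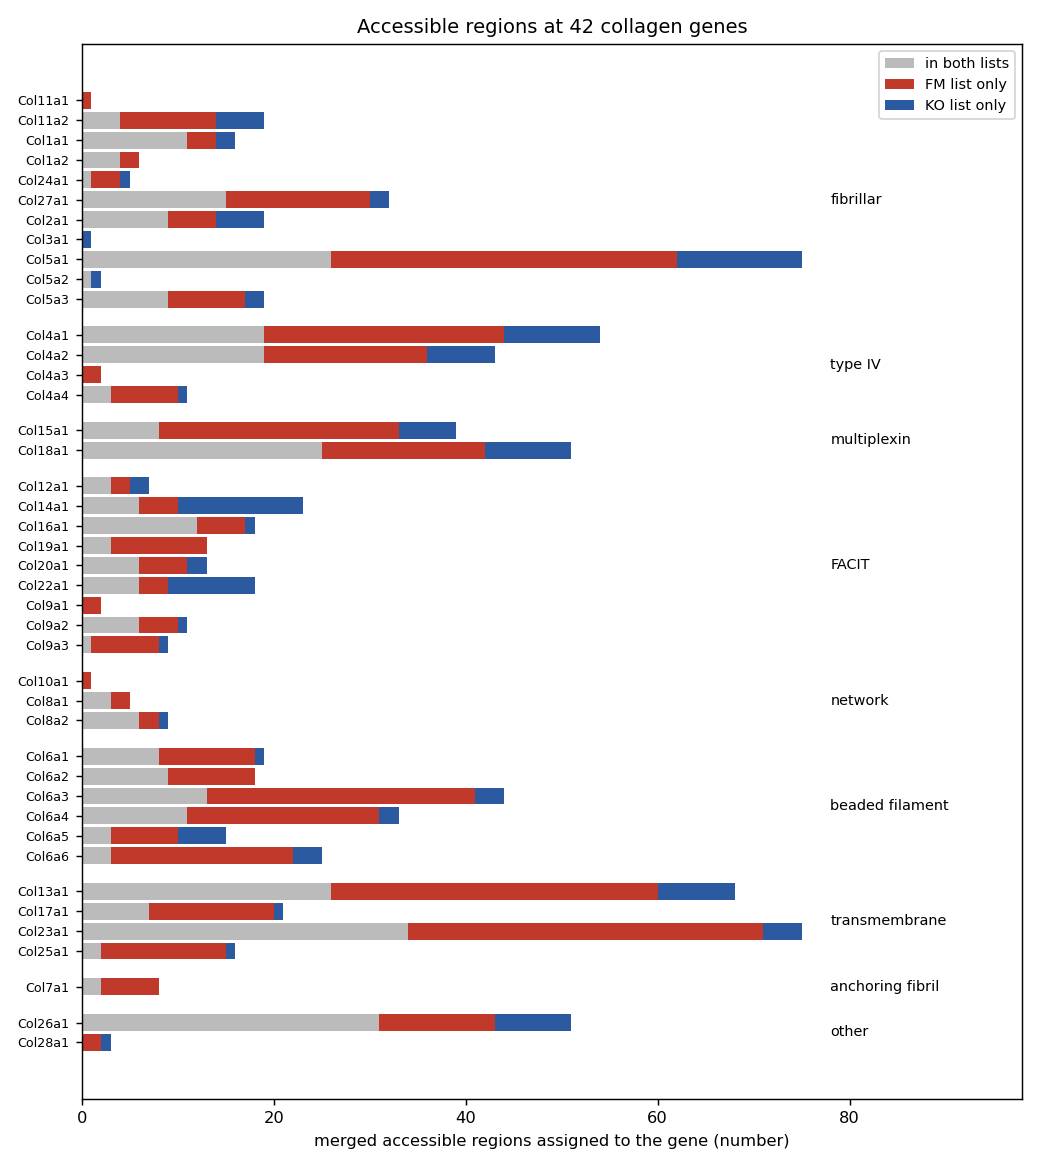
Number of merged accessible regions assigned to each of the 42 collagen genes, grouped by class, with bars split into regions in both lists (grey), in the FM list only (red) and in the KO list only (blue). Col5a1 and Col23a1 had 75 regions each, while Col3a1, Col10a1 and Col11a1 had 1.

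The composition of fibrillar and type IV genes differed by less than the counting error. The 11 fibrillar genes had 195 regions (80 in both lists, 83 in FM alone, 32 in KO alone). The 4 autosomal type IV genes had 109 (40, 51 and 18). The FM-specific share was 72.2% (interval 63.0 to 80.1) for fibrillar and 73.9% (interval 61.9 to 83.7) for type IV. Over all genes it was 73.7%, which both intervals contain. The difference between the classes was −1.74 percentage points, with an interval of −15.2 to 12.6. That interval reaches differences of more than 10 points in both directions, so the counts do not show that the classes were alike. The median fold enrichment of fibrillar peaks was 1.77 for FM and 1.91 for KO, and that of type IV peaks 1.94 and 2.02. A −log10 q of at least 10 was reached by 28 of 167 FM (16.8%) and 27 of 115 KO peaks (23.5%) of the fibrillar class. For type IV these were 11 of 93 (11.8%) and 10 of 58 (17.2%), against 24.5% and 29.6% over all genes.

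Per kb of gene, the fibrillar class held 0.186 regions and type IV 0.208, against 0.222 over all protein-coding genes. The ratio of the fibrillar to the type IV density was 0.898 (interval 0.706 to 1.15). It rested on few genes in each class. The value was 0.647 without Col5a1 and 3.93 without Col4a1 and Col4a2, both chosen after their counts were seen. Within the fibrillar class the density ran from 0.00526 regions per kb at Col11a1 to 0.951 at Col1a1, and within type IV from 0.0148 at Col4a3 to 0.472 at Col4a1. Counting regions inside the gene alone, the densities were 0.120 for fibrillar, 0.166 for type IV, 0.138 for all collagens and 0.135 for all protein-coding genes. The fibrillar to type IV ratio was then 0.727, with a counting interval of 0.549 to 0.966. Split by list, the fibrillar genes had 0.160 FM and 0.110 KO peaks per kb and type IV 0.177 and 0.111, against 0.192 and 0.129 over all genes.

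**Figure D2:**
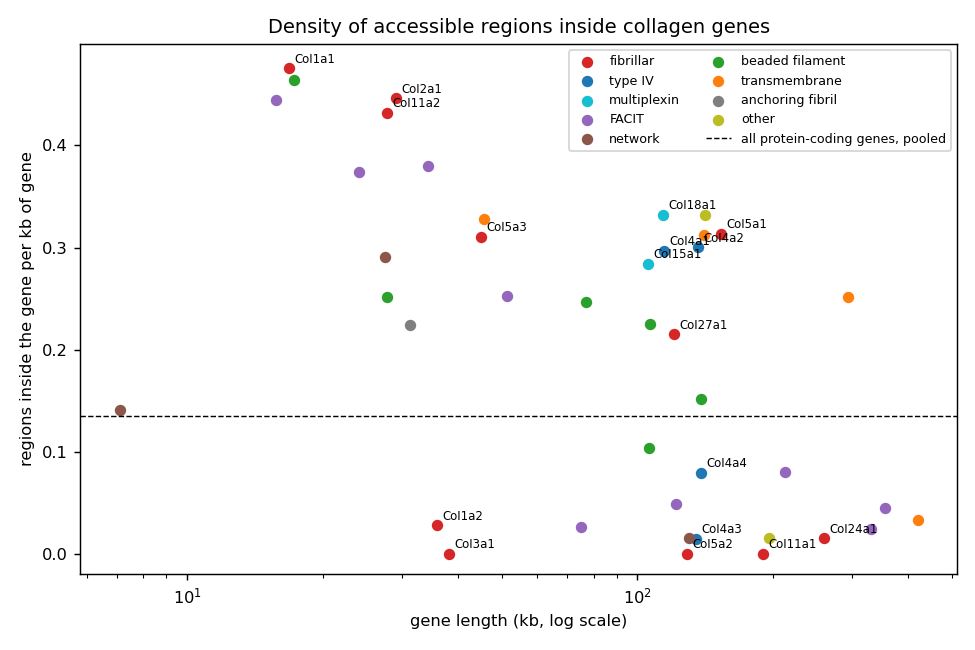
Regions inside each collagen gene per kb of gene against gene length in kb (log scale), 1 point per gene coloured by class, with the pooled value over all protein-coding genes of 0.135 as a dashed line. Col1a1, Col2a1 and Col11a2 sit above 0.4 among short genes, with Col6a1 and Col9a2 (unlabelled), Col4a1, Col4a2 and Col5a1 near 0.3 at over 100 kb, and Col3a1, Col5a2 and Col11a1 at 0.

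RefSeq start windows (250 bases before to 50 after a transcript's start) matched 33 of the 42 genes. Col1a1, Col2a1, Col4a3, Col5a2, Col9a3, Col12a1, Col14a1, Col22a1 and Col26a1 had none. A start window was covered in both lists at 22 genes, against 67.1% of all 16457 genes with a window, in the FM list alone at 3 genes, against 3.94%, in the KO list alone at 0, against 1.49%, and in neither at 8, against 27.5%. The genes covered in the FM list alone were Col11a1, Col11a2 and Col19a1. The 8 genes covered in neither were Col3a1, Col6a3, Col6a4, Col9a1, Col10a1, Col17a1, Col20a1 and Col28a1.

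The promoters of Col11a1, Col5a1, Col1a2, Col6a1 and Col3a1 are shown because they hold the main patterns at the starts. Col11a1 had a peak in the FM list alone, Col5a1 and Col6a1 had a higher fold in the KO list, Col1a2 had the highest fold among collagen starts in the FM list, and Col3a1 had no peak. Each run gives the RefSeq (GRCm38.p6) bases of the window that precede the gene's bounds, 5′ to 3′ on the gene's strand. They are chr3:114030290-114030478 (plus strand) for Col11a1, chr2:27886175-27886380 (plus) for Col5a1, chr6:4505368-4505617 (plus) for Col1a2, chr10:76726045-76726294 (minus) for Col6a1 and chr1:45311288-45311537 (plus) for Col3a1. Capitals mark the homeodomain core TAAT, the TATA box (TATAAA), the CCAAT box and the GC box (GGGCGG), each on either strand.
Col11a1: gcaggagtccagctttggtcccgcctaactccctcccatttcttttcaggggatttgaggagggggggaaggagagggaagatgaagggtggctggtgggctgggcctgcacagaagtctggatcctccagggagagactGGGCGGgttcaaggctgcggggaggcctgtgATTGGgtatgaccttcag
Col5a1: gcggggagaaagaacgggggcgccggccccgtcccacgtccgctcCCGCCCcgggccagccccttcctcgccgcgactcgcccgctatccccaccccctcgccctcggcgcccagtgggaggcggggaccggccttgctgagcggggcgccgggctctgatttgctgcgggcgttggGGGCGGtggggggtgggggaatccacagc
Col1a2: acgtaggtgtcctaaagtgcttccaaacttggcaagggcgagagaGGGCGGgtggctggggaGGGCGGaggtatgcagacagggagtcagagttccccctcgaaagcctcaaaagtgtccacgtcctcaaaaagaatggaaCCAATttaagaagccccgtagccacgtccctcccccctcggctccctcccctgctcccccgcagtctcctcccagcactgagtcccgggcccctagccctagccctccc
Col6a1: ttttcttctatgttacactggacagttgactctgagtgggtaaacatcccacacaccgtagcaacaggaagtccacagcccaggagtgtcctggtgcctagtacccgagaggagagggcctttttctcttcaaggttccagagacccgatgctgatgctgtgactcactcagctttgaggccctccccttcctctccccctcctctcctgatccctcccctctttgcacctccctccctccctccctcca
Col3a1: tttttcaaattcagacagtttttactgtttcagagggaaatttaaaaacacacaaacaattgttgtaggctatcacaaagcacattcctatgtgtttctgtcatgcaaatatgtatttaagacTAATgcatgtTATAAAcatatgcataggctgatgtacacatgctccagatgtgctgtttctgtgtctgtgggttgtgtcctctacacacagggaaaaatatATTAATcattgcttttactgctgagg

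These runs differ in base composition. The Col5a1 run held 25 CpG dinucleotides in 206 bases at 77.7% GC, with 2 GGGCGG matches, whereas the Col3a1 run held 0 CpG in 250 bases at 35.2% GC, with 3 TAAT matches and 1 TATAAA. Col1a2 had 11 CpG, 2 GGGCGG and 1 CCAAT match, Col11a1 had 3 CpG with 1 GGGCGG and 1 CCAAT, and Col6a1 had 3 CpG and none of the motifs. Over the 36 collagen windows of 300 bases, the 26 with a peak in either list had a median of 16 CpG and 62% GC, and the 10 without had 2 CpG and 48.7%. Over all 20085 windows of protein-coding autosomal genes the medians were 20 CpG and 61.3% with a peak, and 2 CpG and 44.7% without. GGGCGG occurred in 20 of the 26 collagen windows with a peak and in 1 of the 10 without, against 63.4% and 7.16% of all windows. TAAT, the core letters bound by homeodomain proteins such as Mixl1, occurred in 6 of the 26 and 6 of the 10, against 39.2% and 81.5%. CCAAT occurred in 12 of the 36 collagen windows (33.3%) against 38.1% of all, and TATAAA in 5 (13.9%) against 12.7%. The paired homeodomain site (TAAT and ATTA with 3 bases of any kind between them, so that it contains TAAT) was in 0 of the 36 windows and in 0.383% of all. All motifs were searched on both strands, and a match or its absence describes letters in these windows alone.

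Among fibrillar starts, Col1a2, a chain of type I collagen, had the tallest FM peak, with a fold enrichment of 5.08 (chr6:4504509-4506015) against 4.02 in the KO list (chr6:4504548-4505932). Col5a1, a chain of the type V collagen that nucleates fibrils, had a fold of 2.58 in the FM list with a −log10 q of 31.8 and 4.08 in the KO list with 92.1, which is 1.58 times as high in KO. Col24a1 had 3.16 and 2.73, Col27a1 2.93 and 3.09, and Col5a3 2.49 and 2.71 in the FM and KO lists. Col11a1, a chain of cartilage type XI collagen, had an FM peak at chr3:114030188-114030754 with a fold of 3.28 and −log10 q of 20.5, and no peak in the KO list. This was the single peak assigned to this gene of 190.3 kb in either list. At Col11a2, another type XI chain, the FM peak over the start (chr17:34038603-34039810) had a fold of 1.74. A KO peak of fold 1.62 ended short of the start window and overlapped the FM peak, so this region counts as shared. The Col3a1 start, that of type III collagen, had no peak, and the gene's nearest peak was a KO peak of fold 2.24, 8.57 kb outside the gene.

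The type IV genes lie head to head in pairs, Col4a1 with Col4a2 on chromosome 8 and Col4a3 with Col4a4 on chromosome 1, so that each pair shares 1 promoter region. RefSeq bounds overlap by 85 bp in the first pair and 114 bp in the second. The Col4a1 and Col4a2 start region was open in both lists, at chr8:11312166-11313289 with a fold of 2.77 and −log10 q of 29.4 in the FM list, and at chr8:11312189-11313289 with 3.48 and 49.2 in the KO list. Its windows were among the CpG-richest of the collagens, with 37 CpG in that of Col4a1. The Col4a3 and Col4a4 start region had the opposite order, with a fold of 3.15 and −log10 q of 18.5 in the FM list and 2.45 and 9.20 in the KO list. The basement membrane zone gene Col18a1 had 2.89 and 3.29 over its outer start, and no peak over its inner start window in either list. Col15a1 had 2.54 and 2.58.

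**Figure D3:**
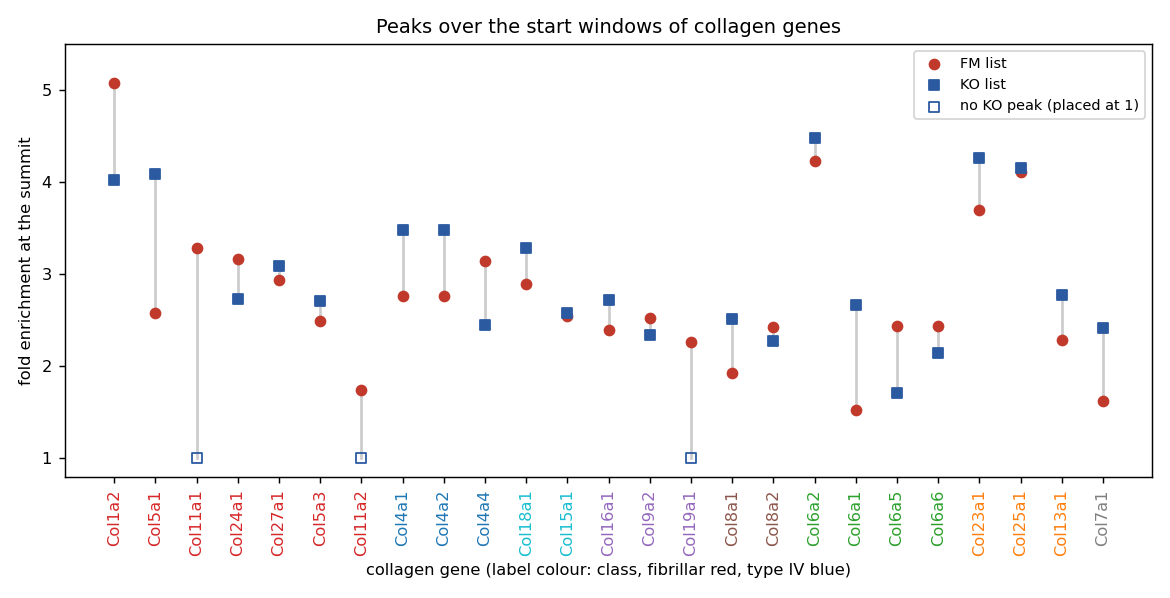
Fold enrichment at the summit of the peak over the start window for the 25 collagen genes with such a peak, in the FM list (red circles) and the KO list (blue squares), ordered by class and then by the higher fold. An open square at 1 marks a start with no KO peak, which are Col11a1, Col11a2 and Col19a1.

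In the other classes, Col6a2, a type VI chain, had tall start peaks in both lists (fold 4.23 and 4.48), as did the transmembrane collagen genes Col25a1 (4.11 and 4.16) and Col23a1 (3.70 and 4.26). The largest KO excess over a start in both lists was at Col6a1, with a fold of 1.52 in the FM list against 2.67 in KO, 1.75 times as high. Col7a1, which forms the anchoring fibrils of skin, had 1.62 and 2.42, and Col6a5 went the other way with 2.44 and 1.71. For genes without a start window, peaks within 1 kb of either RefSeq end were taken, and the end with the taller peaks is given. Col1a1, the other chain of type I collagen, had peaks of fold 2.55 (FM) and 2.71 (KO) at its end of lower coordinate, Col2a1, the main collagen of cartilage, 2.46 and 2.95 at its higher end, Col14a1 2.69 and 2.53 at its lower end and Col9a3 2.37 and 2.09 at its lower end. Col26a1 had 2.85 and 2.53 at its higher end and 2.10 and 1.97 at its lower end. Col5a2 and Col22a1 had no peak at either end in either list, and Col12a1 had an FM peak of fold 2.01 at its higher end and no KO peak. Where Col4a3 meets Col4a4 the peak is the shared one given above.

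Col5a1 (chr2:27886381-28039510) carried the most regions of the fibrillar class. Its 75 regions comprised 26 in both lists, 36 in FM alone and 13 in KO alone, with 48 of them inside the gene, or 0.313 per kb inside the gene. The FM list had 62 peaks there and the KO list 40. The tallest FM peak lay downstream of the gene at chr2:28052880-28053368 with a fold of 2.71, and the tallest KO peak was the one over the start. Col27a1, a fibrillar collagen of cartilage, had 32 regions, with 15 shared, 15 FM-specific and 2 KO-specific.

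Several shorter fibrillar genes were dense in regions. Not all of their regions lay inside the gene, with 8 of 16 inside at Col1a1, 12 of 19 at Col11a2 and 13 of 19 at Col2a1. Col1a1 (chr11:94936224-94953042) is 16.8 kb long, and 11 of its 16 regions were in both lists, 3 in FM alone and 2 in KO alone. Its tallest peaks lay 7.2 kb outside the gene, at chr11:94928599-94929485 with a fold of 3.50 in the FM list and chr11:94928524-94929292 with 4.66 in the KO list. Col11a2 had 19 regions with 4 shared, 10 FM-specific and 5 KO-specific, and its tallest peak, 11.8 kb outside the gene in FM, had a fold of 2.73 there (chr17:34078294-34078719) and 2.24 in KO. Col5a3 had 19, with 9, 8 and 2. Col2a1 had 19 regions with 9 shared and 5 specific to each list. It lies on chromosome 15, where 51.6% of specific regions over all genes were FM-specific, against 73.7% over all autosomes. Its tallest peak, inside the gene, had a fold of 2.54 in the FM list against 3.17 in KO, with −log10 q of 33.9 and 67.5.

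The remaining fibrillar genes held few. Col1a2 had 6 regions and 1 of them inside the gene, and Col24a1 had 5 over 259.5 kb. Col3a1 and Col5a2, which lie 24.6 kb apart on chromosome 1, had 1 and 2 regions, and none of these was inside a gene. At Col5a2, whose protein pairs with that of Col5a1 in type V collagen, the shared region lay 35.9 kb from the gene and had a fold of 1.76 in the FM list against 1.74 in KO.

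**Figure D4:**
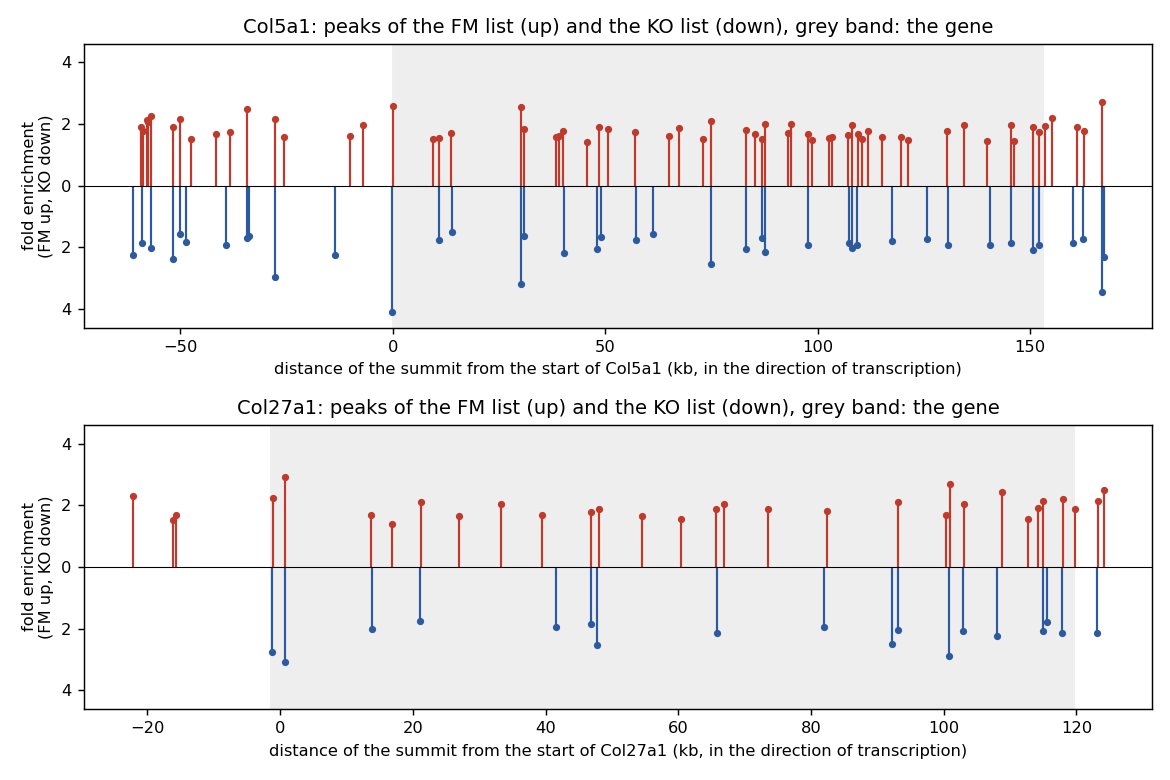
Fold enrichment of each peak assigned to Col5a1 (top) and Col27a1 (bottom) against the distance of its summit from the start in kb, with FM peaks drawn up in red, KO peaks drawn down in blue and the gene as a grey band. At Col5a1 the KO peak at the start, with a fold of 4.08, is the tallest of either list.

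Among type IV genes, Col4a1 (chr8:11198423-11312889) had 54 regions, with 19 shared, 25 FM-specific and 10 KO-specific, and Col4a2 (chr8:11312805-11449287) had 43, with 19, 17 and 7. Together they held 96 of the 109 type IV regions, and a region at the shared start counted for both genes. The pair had 0.383 regions per kb and the pair of Col4a3 and Col4a4 0.0475, although the pairs are 251 kb and 274 kb long. The FM-specific share was 71.2% (interval 57.9 to 82.2) at the first pair, against 73.2% on chromosome 8. At the second pair 9 of 10 specific regions were FM-specific, against 70.6% on chromosome 1. Col4a3, a chain of the glomerular basement membrane, had 2 FM peaks inside the gene, the taller of fold 2.03, and no KO peak assigned to it.

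Inside the Col4a1 and Col4a2 pair, 2 shared regions had an FM fold at least 1.5 times the KO fold, and none the reverse. One, in Col4a1 at chr8:11243749-11244491, had a fold of 3.09 in the FM list against 2.04 in KO, 68.7 kb from the start. The other, in Col4a2 at chr8:11413965-11414568, had 2.43 and 1.62, 102 kb from the start. The tallest FM peak of Col4a2 lay inside the gene at chr8:11382393-11382901 with a fold of 2.78. In the KO list the pair's specific peaks included 2 just outside the end of Col4a2. They lay at chr8:11449413-11449679 (fold 2.59, −log10 q 17.2) and chr8:11450283-11451027 (fold 2.34, −log10 q 12.6), 0.258 and 1.59 kb outside the gene.

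**Figure D5:**
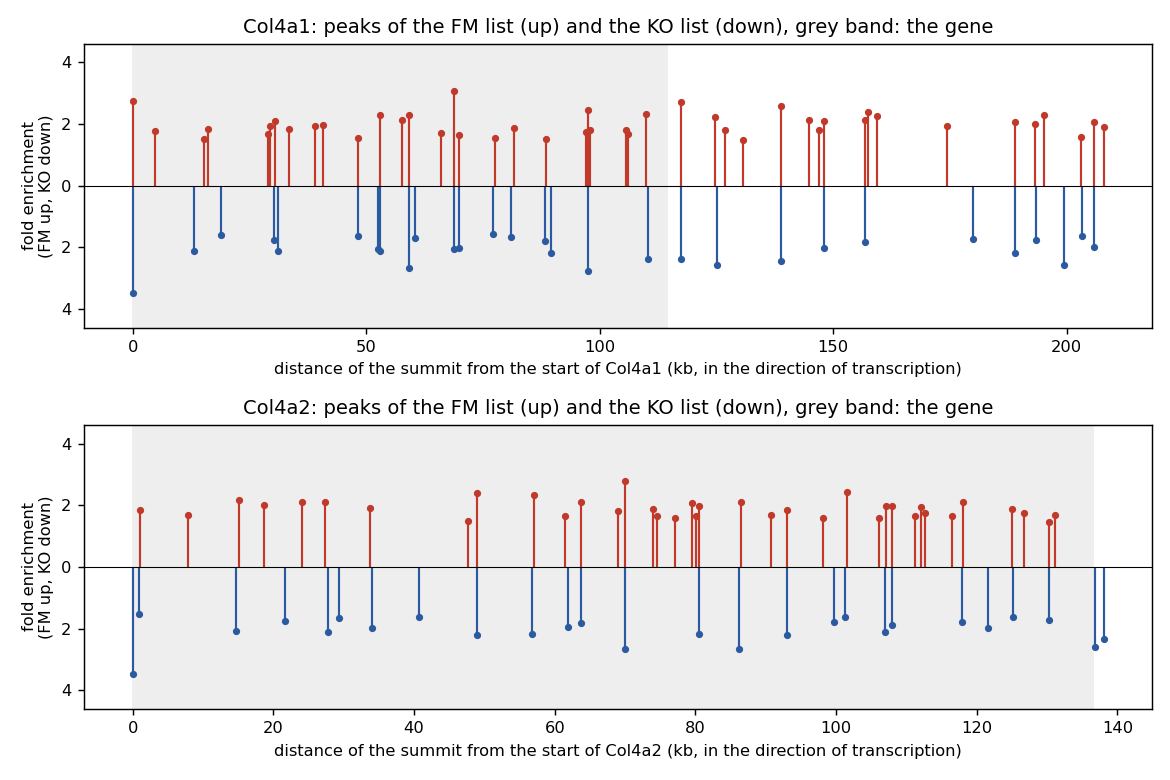
Fold enrichment of each peak assigned to Col4a1 (top) and Col4a2 (bottom) against the distance of its summit from the gene's start in kb, in the direction of transcription, with FM peaks up in red, KO peaks down in blue and the gene as a grey band. Peaks are spread along both genes, with the tallest KO peak, of fold 3.48, at the shared start. That KO peak is drawn for both genes, while the FM peak over the shared start, of fold 2.77, was assigned by its summit to Col4a1 alone.

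The multiplexins were the densest class with more than 1 member, at 0.409 regions per kb. Col18a1, whose C-terminal fragment is endostatin, had 51 regions with 25 shared, 17 FM-specific and 9 KO-specific. Col15a1 had 39 with 8, 25 and 6. Adding them to type IV gave 199 regions and an FM-specific share of 73.8% (interval 65.2 to 81.2), against 73.7% over all genes. The fibrillar to basement membrane density ratio was then 0.698.

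Specific regions of the beaded filament and transmembrane classes were mostly FM-specific. The 6 type VI genes had 47 shared regions, 93 in FM alone and 14 in KO alone (86.9%, interval 79.0 to 92.7), against 75.6% from their chromosomes. In FM alone and KO alone, Col6a3 had 28 and 3, Col6a4 20 and 2, and Col6a6 19 and 3, while Col6a5, which lies between the latter 2 on chromosome 9, had 7 and 5. The 4 transmembrane genes had 69, 97 and 14 (87.4%, interval 79.7 to 92.9), also against 75.6%. In the lists as deposited both counting intervals lie above the chromosome value. With a −log10 q of 5 or more that of type VI did not (42 and 11, 79.2%, interval 65.9 to 89.2, against 72.8%), while that of the transmembrane genes did (57 and 8, 87.7%, interval 77.2 to 94.5, against 74.7%). As deposited, Col23a1 had 37 and 4, Col13a1 34 and 8, Col17a1, a hemidesmosome component, 13 and 1, and Col25a1 13 and 1. With the 50000 peaks of lowest p from each list the counts were 11 and 6 for type VI (interval 38.3 to 85.8) and 16 and 11 for the transmembrane genes (interval 38.8 to 77.6), and both intervals contain the chromosome values of 49.7% and 51.6%.

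In the FACIT class the counts on chromosome 15 differed from those elsewhere in the lists as deposited. Its 9 genes had 42 regions in FM alone and 29 in KO alone (59.2%, interval 46.8 to 70.7), against 65.4% from their chromosomes. Col14a1 (4 and 13) and Col22a1 (3 and 9), both on chromosome 15, gave 7 and 22 (24.1% FM-specific, interval 10.3 to 43.5), against 51.6% over all genes of that chromosome. The other 7 gave 35 and 7 (83.3%, interval 68.6 to 93.0), against 74.9% from their chromosomes, which lies within the interval. With both lists held to a −log10 q of 5 or more, Col14a1 had 2 and 2 and the chromosome 15 pair 2 and 6 (interval 3.19 to 65.1), against 53.4%. With the 50000 peaks of lowest p from each list the pair had 0 and 9, and the other 7 turned to 3 and 5. As deposited, Col19a1 had 10 and 0 and Col9a3 7 and 1, while Col16a1 had 5 and 1 beside 12 shared. Of the remaining classes, Col8a2 and Col8a1 of the short-chain network collagens had 9 and 5 regions, and Col10a1, a marker of hypertrophic cartilage, had 1. Col26a1 had 51 regions with 31 shared, 12 FM-specific and 8 KO-specific, and Col28a1 had 3. Col7a1 had 2 shared and 6 FM-specific regions.

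At 5 of the 42 genes at least 1 list had no peak assigned, against 18.7% of all genes. Col3a1 had no FM peak assigned, and Col4a3, Col9a1, Col10a1 and Col11a1 had no KO peak assigned. Each of these genes had at most 2 peaks assigned in the other list. At Col4a3 a KO peak of fold 2.45 overlapped the end where it meets Col4a4, but the peak's summit placed it with Col4a4.

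Where both lists had a peak, the folds differed little. The median log2 ratio of the FM to the KO fold over the 354 shared collagen regions was −0.02 (interval of the median −0.05 to 0.01), against −0.00391 over all shared regions. It was −0.08 for fibrillar, 0.06 for type IV, 0.01 for type VI and −0.04 for transmembrane regions. The FM fold was at least 1.5 times the KO fold in 6 regions (1.69%), against 1.76% over all, and the KO fold at least 1.5 times the FM fold in 8 (2.26%), against 3.37%. The FM side comprised the 2 type IV regions above and 1 region each at Col6a3 (chr1:90857870-90858404, 1.67 times), Col6a5 (1.62 times), Col26a1 (1.57 times) and Col23a1 (folds of 2.19 and 1.46). The KO side comprised Col19a1, Col22a1 (2.26 times), Col6a1, Col23a1, 2 regions of Col18a1 (1.64 and 1.59 times), the start of Col5a1 and a region 9.14 kb outside Col1a2 (1.55 times).

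The tallest collagen peaks of both lists were among these. A region upstream of Col19a1 (chr1:24612147-24614897, 24.8 kb from the gene) had a fold of 6.97 and −log10 q of 3815 in the FM list, and 17.2 and 9235 in the KO list. A region inside Col23a1 (chr11:51455522-51455916) had a fold of 7.45 in the FM list against 12.3 in KO. The 2 FM-specific collagen peaks of lowest q lay 84 and 144 bp beyond the edges of the Col19a1 region, with −log10 q of 163 and 82.6 at folds of 1.91 and 1.63. They rank first by q but are low by fold, and both are among the 10 FM-specific regions of Col19a1. Regions of unreliable mapping were not removed here, and whether the Col19a1 or Col23a1 signals come from one was not tested.

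Apart from these 2, the FM-specific peaks of lowest q lay at the end of Col23a1 (chr11:51582613-51583073, fold 2.15, −log10 q 22.4), over the start of Col11a1, and inside Col10a1 (chr10:34394088-34395694, fold 2.74) and Col23a1 (chr11:51442067-51442343, fold 2.74). With a −log10 q of at least 10 there were 20 FM-specific collagen regions of 919, against 2.6% of all regions, and 11 KO-specific ones, against 1.39%. The 20 included 4 at Col13a1, 4 at Col23a1 and 2 at Col19a1. The others were at Col10a1, Col6a3, Col11a1, Col11a2, Col17a1, Col18a1, Col1a1, Col7a1, Col6a1 and Col4a4. The strongest KO-specific region was inside Col14a1 (chr15:55440719-55441537, fold 4.12, −log10 q 37.8), followed by the one next to Col4a2 and one 11.4 kb outside Col2a1 (chr15:98015942-98016535, fold 2.46). Col22a1 (fold 2.88), Col12a1 (fold 2.85), Col23a1, Col6a4, Col4a1, Col16a1 and a second site of each of Col4a2 and Col2a1 made up the rest. Of these 11 regions, 4 were on chromosome 15, against 9.01% of the 3084 such regions over all genes.

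Start windows of the genes that process or bind collagen were read against the 67.1% of all genes covered in both lists. Of the 32 genes of collagen folding and processing, the 22 with a start window had a peak over it in both lists at 21, and P3h3 had none. P4ha1, a subunit of prolyl 4-hydroxylase, had start folds of 9.34 (FM) and 10.0 (KO), and Serpinh1, the collagen chaperone HSP47, 2.98 and 3.99. Colgalt1, a collagen galactosyltransferase, had 4.37 and 6.99. The set had 195 regions in FM alone and 58 in KO alone (77.1%, interval 71.4 to 82.1), against 73.7% over all genes.

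The 16 laminin, nidogen and other basement membrane genes had 180 in FM alone and 75 in KO alone (70.6%, interval 64.6 to 76.1), against 73.7% over all genes. All 9 with a window had a start peak in both lists. Among them, Hspg2, which encodes perlecan, had start folds of 4.43 and 4.50, Lamb1 3.43 and 4.19 and Nid1 3.21 and 2.95. Of the 9 collagen receptor genes, 6 had a start peak in both lists, a share near the 67.1% over all genes. Lair1 had one in the FM list alone, and Ddr2 and Gp6 had none. The receptor set had 76 regions in FM alone and 23 in KO alone (76.8%, interval 67.2 to 84.7), against 73.7% over all genes. Itgb1, the integrin subunit shared by the collagen-binding integrins, had start folds of 5.76 and 6.86. The receptor genes differed, with 3 regions in FM alone and 8 in KO alone at Ddr2, and 40 and 8 at Itga11. The 5 collagenase and gelatinase genes had 20 shared regions, 16 in FM alone and 4 in KO alone (80.0%, interval 56.3 to 94.3), against 73.7% over all genes. Most were at Mmp2 (7, 10 and 3), Mmp9 (7, 4 and 0) and Mmp14 (6, 2 and 0). Mmp8 had no region and Mmp13 had 1 KO-specific region. Mmp14, a membrane-bound activator, had an FM start peak of fold 2.11 and no KO start peak, while its tallest peaks had folds of 3.25 (FM) and 3.58 (KO).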

How the data were processed

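ATAC-seq had been made from 3 Mixl1 knockout and 3 Mixl1-induced libraries, with 11 PCR cycles each. Bowtie2, SAMtools, MACS2 and bcl2fastq, with mm10 as the build, are named by the submitters' processing notes. The pooling of libraries, Tn5 shifting and read filters were not given in the sources used here. Per peak, the deposited lists give the fold enrichment of the summit (a ratio), −log10 of the p-value and q-value, and a whole-number score that was not used. The lowest deposited −log10 q was 1.30, a q of 0.05. The lists held 279817 (FM) and 191107 (KO) rows. Rows with the same bounds were collapsed to that of lowest p, leaving 205974 and 139351 peaks, and autosomes were kept. Regions are the union of both lists, shared with at least 1 bp of overlap, and a region's position is the summit of lowest p. Nearest genes came from a RefSeq table of GRCm38.p6 (mm10 is GRCm38), with distance 0 inside a gene. A peak in overlapping genes counted for each gene, and once in class totals. Peaks per kb divide by RefSeq gene length. Intervals are exact binomial (Clopper-Pearson, 95%), that of a difference combines both shares' bounds, and they cover counting alone. Exon and intron classes and a motif search in peaks need a genome or annotation not used here.

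The members, classes, gene lists and motifs were chosen with earlier results of these data known. All fibrillar, type IV and multiplexin genes were named, with the 2 members of most regions in each other class, every member without a peak in a list, the tallest peaks of fibrillar and type IV genes, the 5 specific peaks of lowest q per list and every specific peak reaching a −log10 q of 10. Other named members were chosen after their values were seen, as were the pathway genes given as examples. Alternatives were a −log10 q of at least 5, 50000 peaks per list, 10 kb or no distance from the gene, leaving out chromosomes 12 and 15, an overlap of 50% of the shorter peak, and type IV with the multiplexins. Merging and assignment were tested on simulated data. Python 3.11.15, pandas 2.3.3 and SciPy 1.17.1 were used.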

Additional observations from a re-analysis of the deposited data

How the results depend on the processing

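No paired analysis was possible because each group is represented by 1 peak list, and for the same reason no replicate could be left out. With both lists held to a −log10 q of 5 or more, the collagen genes had 425 FM and 268 KO peaks, and with the 50000 peaks of lowest p from each list 137 and 156. In the latter setting the FM-specific share of specific collagen regions fell to 41.9%, so that the order of the lists turned. Its interval of 33.1 to 51.1 contains the 50.8% over all genes. The share was 74.6% to 80.0% under the other 5 alternatives, against 72.8% to 75.6% over all genes. The fibrillar minus type IV difference in this share took either sign, from −4.33 to 3.14 percentage points under 7 alternatives, and was −17.8 without Col4a1 and Col4a2, where 10 specific type IV regions remained. With 50000 peaks per list the order turned in both classes. Fibrillar genes then had 6 FM-specific and 13 KO-specific regions (31.6%, interval 12.6 to 56.6). Type IV genes had 4 and 10 (28.6%, interval 8.39 to 58.1), and multiplexins 3 and 8 (27.3%, interval 6.02 to 61.0). These intervals contain the 50.8% over all genes. The ratio of fibrillar to type IV regions per kb of gene was 0.698 with the multiplexins added, 0.647 without Col5a1 and 3.93 without Col4a1 and Col4a2. Leaving out genes was chosen after seeing the data. The median log2 fold ratio of shared regions stayed between −0.05 and −0.00803. The motif search in peaks was not run. Depth in reads is unknown, so a missing peak is one not called at this depth.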

Other observations

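The type IV genes on X were outside the comparison. Col4a6 had 1 peak assigned to it in each list, inside the gene at chrX:141276429-141276761 in the FM list with a fold of 13.4, and at chrX:141276429-141276769 in the KO list with a fold of 24.9. Both folds exceed those of every autosomal collagen peak in the same list. Whether this peak lies in a region of unreliable mapping was not tested. Its neighbour Col4a5 had no peak assigned in either list.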
